A study of Homo sapiens with 9 samples.

Results

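RBPMS and RBPMS2 are paralogous genes that encode small RNA-binding proteins, each with a single RNA recognition motif. Both were found by their symbols in the authors' deposited comparison table, as 2 of its 60605 gene identifiers, and they were taken as a pair with their values in these libraries already known. They were chosen by their measured counts, which were low for RBPMS2 in both clones and differed for RBPMS between clones and between countings. Their levels are therefore given as a description, with no test. The series measured total RNA of KG-1a, a human acute myeloid leukaemia line, by paired-end sequencing of 150 bases per read on a NovaSeq instrument. It had 3 groups of 3 libraries: PRMT2 knockout clone 1 (KO clone 1), PRMT2 knockout clone 2 (KO clone 2) and cells with wild-type PRMT2 (WT). PRMT2 encodes a protein arginine methyltransferase. Both clones were made with CRISPR/Cas9 and PRMT2-targeting crRNAs, and no group received a drug. Each clone is a single edited line, so the 3 libraries of a clone do not show how clones vary. Single-cell cloning of the WT cells, and separate cultures for the libraries of a group, are not stated in the sources used here. Without separate cultures, the p-values below measure only the spread between these samples.

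RBPMS family proteins bind as dimers to RNA that carries repeated CAC motifs. In rat smooth muscle, RBPMS is known as a regulator of alternative splicing that favours the exons of differentiated muscle cells. RBPMS2 is known from visceral smooth muscle and heart, and in chicken it binds the mRNA of NOG, a secreted inhibitor of bone morphogenetic proteins. RNA levels, which are what these libraries measured, do not give the amount of either protein. In bulk RNA, fewer cells that express a gene and less RNA per cell cannot be told apart.

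RBPMS2 (ENSG00000166831) lies on the minus strand of chromosome 15, from base 64739891 to base 64775589 of GRCh38. Its reference transcript (the MANE transcript) has 8 exons and 2017 bases. The promoter of RBPMS2 is shown because RBPMS2 was the member at or near 0 counts in both clones. The RefSeq promoter table (GRCh38.p14), in which 1 of the 2 members was matched by symbol, lists 3 start sites for it, and 2 of the 3 are also transcript starts in the GENCODE annotation. The first line below holds the 250 bases before the start of the MANE transcript (chr15:64775590-64775839, minus strand). The second holds the 250 bases before the start of a shorter transcript inside the gene (chr15:64761218-64761467, minus strand). Both are written 5′ to 3′ on the strand of the gene, with each CG dinucleotide in capitals.
RBPMS2 start of the MANE transcript: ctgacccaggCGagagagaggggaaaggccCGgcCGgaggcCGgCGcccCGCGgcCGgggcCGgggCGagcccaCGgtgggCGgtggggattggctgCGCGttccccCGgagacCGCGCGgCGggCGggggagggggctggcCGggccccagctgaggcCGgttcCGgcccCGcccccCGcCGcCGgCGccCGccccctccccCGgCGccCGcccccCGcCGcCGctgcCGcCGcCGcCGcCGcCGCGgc
RBPMS2 internal start: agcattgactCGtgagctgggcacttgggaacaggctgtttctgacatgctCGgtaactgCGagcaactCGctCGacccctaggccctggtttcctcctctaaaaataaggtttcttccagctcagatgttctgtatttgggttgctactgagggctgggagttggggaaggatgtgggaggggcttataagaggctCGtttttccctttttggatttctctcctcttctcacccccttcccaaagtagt
The window before the MANE start held 42 CG dinucleotides, and 98.6% of the 35116 RefSeq promoter windows of that length held fewer; the median was 11. Its G and C content was 87.2%. The internal window held 6 CG dinucleotides and 51.2% G and C. The letters CCAAT (the CCAAT box) were searched on both strands, as were GGGCGG (the GC box, each copy of which contains a CG counted above) and, last, TATAAA (known as the TATA box). The window before the MANE start held a CCAAT box, as did 32.0% of all windows. It held 5 GC boxes, a number reached by 4.15% of windows, while 42.6% held at least 1. It held no TATA box on either strand, and 10.7% of windows did. The internal window held none of these motifs. Each match is a string of letters in the window and was not tested as a binding site.

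The libraries held 28006342 to 43149410 counted read pairs, which were 25.9% to 29.6% of all pairs. Unless another counting is named, counts are those on the strand that held 92.0% to 92.3% of the stranded counts; for a gene this is its own strand. KO clone 1 replicate 1 stood apart, with 13.3% of its pairs mapped to several places while the other 8 libraries had 3.86% to 4.51%, and with 13440 counts per 1000000 (CPM) of the mitochondrial ribosomal RNA MT-RNR1 against 14.8 to 52.0 CPM. PRMT2 RNA averaged 20.7 ± 0.544 CPM in KO clone 1, 21.2 ± 0.153 CPM in KO clone 2 and 39.4 ± 0.393 CPM in WT (SD, n = 3 each). PRMT2 was lower in both clones but was not lost as RNA, with log2 fold changes of -0.93 (SE 0.055, adjusted p = 7.79e-18) in KO clone 1 and -0.89 (SE 0.054, adjusted p = 1.51e-17) in KO clone 2 (edgeR quasi-likelihood test, Benjamini-Hochberg adjustment over 20655 genes). A gene was called where the adjusted p was under 0.05 and the log2 fold change was at least 1 in size. By that rule 7.58% of all genes tested were called in KO clone 1 against WT, 5.96% in KO clone 2 against WT, 6.53% in the mean of both clones over WT and 2.82% in KO clone 2 against KO clone 1. Of 6 markers used to check the line, 5 passed the filter and none was called in the mean of both clones. The stem cell antigen CD34 averaged 735 ± 21.4, 765 ± 23.2 and 626 ± 14.1 CPM in KO clone 1, KO clone 2 and WT, and the leukocyte antigens PTPRC and SPN were at a similar level, while the myeloid markers CD33 and MPO were at most 0.488 and 0.211 CPM in any group mean.

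RBPMS2 RNA was at or near 0 in both clones and well expressed in WT. The RBPMS2 counts were 0, 5 and 0 in the libraries of KO clone 1, 0 in all 3 libraries of KO clone 2, and 1226, 1206 and 1032 in the WT libraries. Every knockout library lay below every WT library, and 5 of the 6 knockout libraries had no count at all. Nothing is read from that separation, because RBPMS2 was chosen with these values known. On the CPM scale the level of RBPMS2 was 31.1 ± 1.44 in WT (SD, n = 3), with 32.0, 29.4 and 31.8 CPM in the single libraries. All 5 counts in KO clone 1 came from replicate 2, which was at 0.155 CPM. A count of 0 in KO clone 2 allows a level of up to 0.0701 to 0.0800 CPM, depending on the library. Summed over the 3 libraries and scaled for depth, RBPMS2 was 571-fold lower in KO clone 1 than in WT, with an exact 95% interval of 244 to 1759 from 5 counts against 3464 counts. In KO clone 2 it was at least 1255-fold lower than in WT, taking the 3 counts over the group that a total of 0 allows. The interval and the bound cover counting error only. The authors' deposited table, which compares both clones together with WT, gives RBPMS2 a log2 fold change of -9.80 (SE 1.23) and marks it as down.

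Nearly all RBPMS2 counts in WT were on the strand of the gene. The opposite strand had 0, 0 and 2 counts in KO clone 1, none in KO clone 2, and 4, 1 and 0 counts in WT, which were 0.144% of the stranded counts there. Over the 16980 tested genes with at least 100 stranded counts in WT, the median share on the opposite strand was 0.542%. The value of RBPMS2 depended little on the counting: without regard to strand its level was 0.0736 ± 0.0798 CPM in KO clone 1, 0 CPM in KO clone 2 and 31.7 ± 1.58 CPM in WT. The annotated processed pseudogenes RBPMS2P1 and RBPMSLP, which resemble the family, had 0 counts on their own strand in all 9 libraries.

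RBPMS went in opposite directions in the clones. The gene (ENSG00000157110) lies on the plus strand of chromosome 8, from base 30384511 to base 30572256 of GRCh38, and its MANE transcript has 9 exons and 2874 bases. Its counts were 1957, 2270 and 2349 in KO clone 1, 41, 28 and 37 in KO clone 2, and 71, 98 and 66 in WT. Every KO clone 1 library lay above every WT library, and every KO clone 2 library lay below every WT library. Of all genes tested, 250 (1.21%) had this order of libraries, and nothing is read from that count because RBPMS was chosen with these values known. The level of RBPMS was 71.6, 70.5 and 72.1 CPM in KO clone 1 (71.4 ± 0.831, SD, n = 3), 0.994, 0.747 and 0.865 CPM in KO clone 2 (0.869 ± 0.123) and 1.85, 2.39 and 2.03 CPM in WT (2.09 ± 0.273). The fitted log2 fold change of RBPMS over WT was 5.08 (SE 0.081) in KO clone 1, a 33.9-fold higher level. It was -1.26 (SE 0.148) in KO clone 2, a 2.40-fold lower level that rests on 106 counts against 235 counts. Summed over the 3 libraries and scaled for depth, those counts gave a 2.41-fold lower level, with an exact 95% interval of 1.91 to 3.06. That interval covers counting error only. The log2 difference of KO clone 2 over KO clone 1 was -6.35 (SE 0.092). Without KO clone 1 replicate 1, the library that stood apart, the log2 fold change of RBPMS in KO clone 1 was 5.08, and RBPMS2 was 402-fold below WT in that clone.

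The strand on which reads were counted changed what RBPMS looked like. On the opposite strand, the RBPMS locus had 408, 423 and 377 counts in KO clone 1, 641, 551 and 613 in KO clone 2, and 636, 680 and 507 in WT. These gave 13.2 ± 1.68 CPM, 14.9 ± 0.619 CPM and 16.3 ± 0.554 CPM in KO clone 1, KO clone 2 and WT. The opposite strand thus differed little between groups in size. Every knockout library still lay below every WT library, at 11.6 to 15.5 CPM against 15.6 to 16.6 CPM. How many of all genes show that separation was not computed, so nothing is read from it. The opposite strand held 13.8% to 17.3% of the stranded RBPMS counts in the KO clone 1 libraries. Its share was 94.0% to 95.2% in the KO clone 2 libraries and 87.4% to 90.0% in the WT libraries. The 95% Wilson intervals of these shares ran from 12.6% to 18.8% in KO clone 1, from 91.9% to 96.6% in KO clone 2 and from 84.9% to 92.0% in WT. In WT, 96.4% of the 16980 genes had a smaller share on the opposite strand than RBPMS, and 1768 genes (10.4%) had over 50% there.

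**Figure D1:**
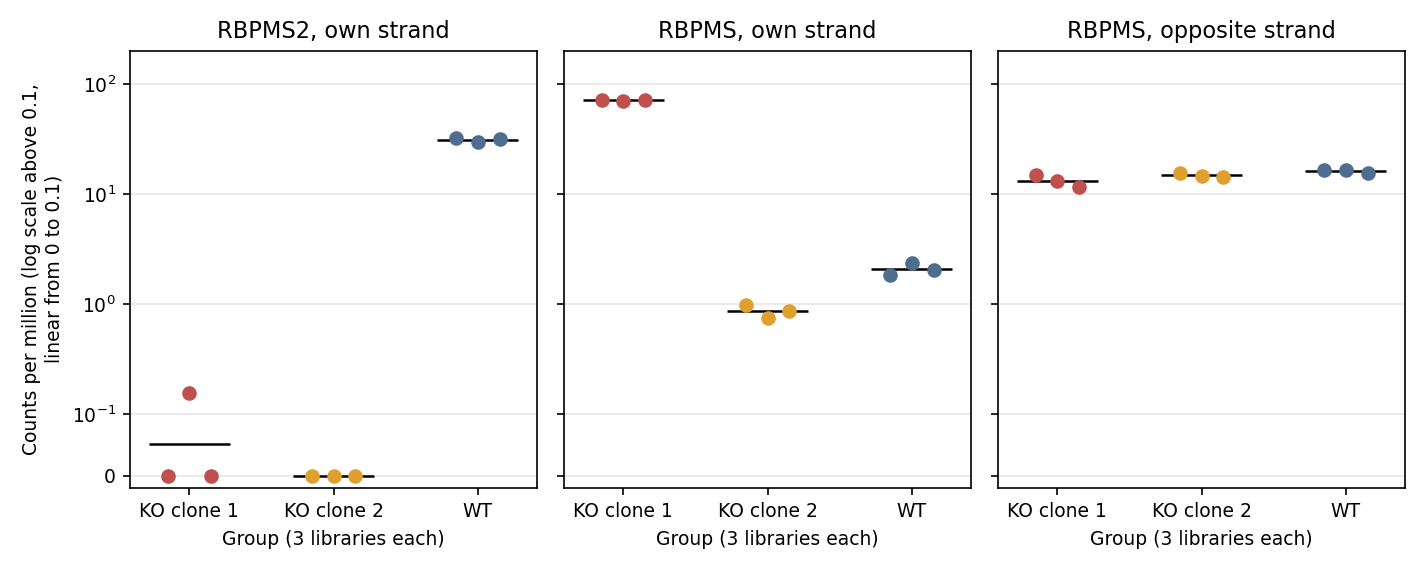
Level in CPM in the 9 libraries for RBPMS2 on its own strand, RBPMS on its own strand and RBPMS on the opposite strand, by group. Points are libraries and lines are means of 3; the vertical axis is logarithmic above 0.1 and linear below. RBPMS2 is at or near 0 in both clones, RBPMS averages 71.4, 0.869 and 2.09 CPM in KO clone 1, KO clone 2 and WT, and its opposite strand lies between 11.6 and 16.6 CPM in all 9 libraries.

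The counting without regard to strand mixed these signals. It gave RBPMS 2120, 2424 and 2475 counts in KO clone 1, 674, 579 and 644 in KO clone 2, and 704, 768 and 568 in WT. On that counting the level was 77.6 ± 1.14 CPM in KO clone 1, 15.9 ± 0.615 CPM in KO clone 2 and 18.6 ± 0.545 CPM in WT, so the WT level was set mainly by opposite-strand counts. The log2 fold change of RBPMS over WT on that counting was 2.06 in KO clone 1 and -0.23 in KO clone 2. The log2 fold change of the mean of both clones over WT was 0.92 on that counting, against 1.91 (SE 0.112) on the gene's own strand. The raw counts in the authors' deposited table equalled the unstranded counting in 9 of 9 libraries, and that table gives RBPMS a log2 fold change of 1.34 (SE 0.683) for both clones together over WT, marked as not significant. A mean over the clones covers values of opposite sign, so neither 1.91 nor 1.34 describes either clone.

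The sum of both strands exceeded the counting without regard to strand by 245, 269 and 251 counts in KO clone 1 and by at most 10 counts in any other library. RBPMS-AS1, an antisense RNA gene, overlaps the first 891 bases of RBPMS. On the strand of RBPMS, the RBPMS-AS1 locus had 245, 269 and 250 counts in KO clone 1, 9, 0 and 6 in KO clone 2, and 3, 10 and 5 in WT. The start of RBPMS thus carried sense reads in KO clone 1, in numbers within 1 of those left out of the counting without regard to strand, where a read that overlaps genes on both strands is assigned to neither.

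Scaled for exon length, the RNA of the pair was almost only RBPMS in the clones and almost only RBPMS2 in WT. In transcripts per 1000000 (TPM), a level per base of annotated exon, RBPMS2 was at 0.0853 ± 0.148 in KO clone 1, 0 in KO clone 2 and 51.5 ± 1.85 in WT. The TPM of RBPMS was 27.4 ± 1.40 in KO clone 1, 0.338 ± 0.0506 in KO clone 2 and 0.822 ± 0.116 in WT (SD, n = 3 each). RBPMS2 made up 0% to 0.923% of the summed TPM of the pair in KO clone 1, 0% in KO clone 2 and 98.1% to 98.6% in WT. The summed TPM of the pair was 27.4 ± 1.42 in KO clone 1, 0.338 ± 0.0506 in KO clone 2 and 52.3 ± 1.74 in WT. The 3 groups did not overlap, but nothing is read from that, because the pair was chosen with its counts known. On these exon lengths, RBPMS in KO clone 1 was below RBPMS2 in WT, and KO clone 2 had little of either RNA. Among 19942 protein-coding genes, RBPMS stood above 75.4% in KO clone 1, 39.3% in KO clone 2 and 42.3% in WT by mean TPM, and RBPMS2 stood above 86.2% in WT. The exon length of RBPMS, 8894 bases over all annotated transcripts, is longer than its MANE transcript of 2874 bases. Its TPM would therefore be higher on the length of that transcript. For RBPMS2 the lengths are close, at 2104 and 2017 bases. The order of RBPMS in KO clone 1 and RBPMS2 in WT, and of the pair sums, thus depends on the length used. In CPM, which use no length, RBPMS in KO clone 1 (71.4) was above RBPMS2 in WT (31.1).

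**Figure D2:**
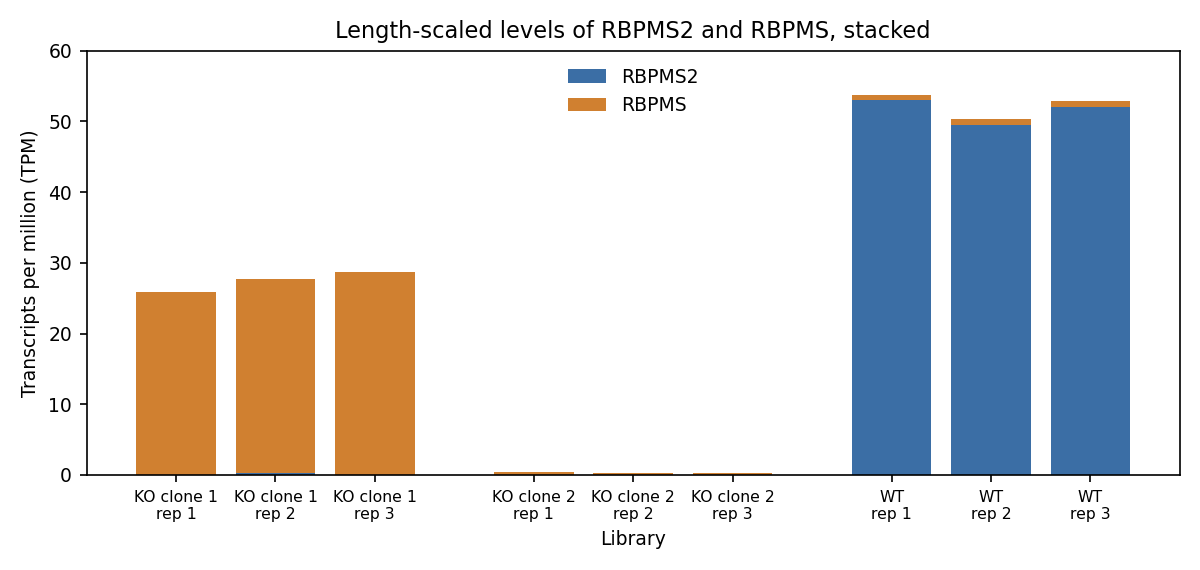
Level per length of RBPMS2 and RBPMS in TPM, stacked, with 1 bar per library in KO clone 1, KO clone 2 and WT. The bars are nearly all RBPMS at 25.9 to 28.7 TPM in KO clone 1, hardly visible at 0.290 to 0.391 TPM in KO clone 2, and nearly all RBPMS2 at 50.4 to 53.8 TPM in WT.

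Apart from genes that lie inside or across RBPMS, no tested gene around it was called in either clone. Within 500 kb of RBPMS the annotation holds 36 other genes, of which 18 passed the filter on low counts. In KO clone 1, 2 of the 18 were called, both higher, while 7.58% of all genes were called and 2.6% were called higher. Both passed the filter only through their counts in KO clone 1. Their direction was therefore fixed, and nothing is read from that number. In KO clone 2 none of the 18 was called, while 5.96% of all genes were. RBPMS-AS1 had 14, 17 and 17 counts in KO clone 1 and 0 counts in all 6 other libraries. It was at least 19.4-fold higher in KO clone 1 than in WT and at least 21.1-fold higher than in KO clone 2. These bounds take 3 counts over a group for a total of 0. The adjusted p against WT was 3.97e-07 (edgeR), which is no independent support because the filter was passed only through KO clone 1. At 0.521 ± 0.00771 CPM in KO clone 1, RBPMS-AS1 was a small fraction of RBPMS.

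The other called gene, ENSG00000279041, has no symbol and was picked after its values were seen. It lies inside RBPMS on the same strand, so its counts cannot be told apart from unspliced or alternative RBPMS RNA. It had 111, 144 and 135 counts in KO clone 1, 3, 3 and 1 in KO clone 2, and 3, 10 and 1 in WT. Its log2 fold change over WT was 5.05 (adjusted p = 1.52e-17) in KO clone 1 and -1.07 (adjusted p = 0.247) in KO clone 2 (edgeR). The value in KO clone 1 rests on few WT counts and was 6.14 without WT replicate 2. It was 1.47 when reads were counted without regard to strand, which includes opposite-strand counts. The opposite strand of this locus had 43, 40 and 45 counts in KO clone 1 and 71, 104 and 39 in WT.

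The uncalled neighbours described here, of RBPMS and of RBPMS2, were chosen after their values were seen. GTF2E2, which encodes a subunit of the general transcription factor TFIIE, is the next gene beyond the end of RBPMS. It lies on the opposite strand and ends 6061 bases from the end of RBPMS, so that the genes converge. GTF2E2 had 16.5 ± 1.08 CPM in KO clone 1, 20.2 ± 0.618 CPM in KO clone 2 and 21.4 ± 0.986 CPM in WT. Its log2 fold change over WT was -0.37 (SE 0.068, adjusted p = 1.66e-05) in KO clone 1 and -0.08 (SE 0.065, adjusted p = 0.390) in KO clone 2, and that of KO clone 2 over KO clone 1 was 0.29 (SE 0.068, adjusted p = 0.000818; edgeR). The change in KO clone 1 passed the adjusted p but was too small to be called. Opposite-strand counts at RBPMS were 80.3% ± 9.75 of the GTF2E2 counts in KO clone 1, 73.8% ± 3.71 in KO clone 2 and 76.3% ± 5.95 in WT (SD, n = 3 each). The ranges over libraries of this ratio overlapped in all 3 groups, at 69.0% to 86.0%, 69.5% to 76.2% and 69.5% to 80.6%. Whether the opposite-strand reads at RBPMS come from GTF2E2 transcription was not tested.

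Of the other 15 tested genes within 500 kb of RBPMS, none was called in either clone. The shares of all genes called were 7.58% in KO clone 1 and 5.96% in KO clone 2. With so few genes, none called is near those shares, and nothing is read from it. LEPROTL1, a small membrane protein gene, passed the adjusted p in KO clone 1 with a log2 fold change of 0.20 (adjusted p = 1.66e-05). WRN, which encodes a RecQ helicase, had log2 fold changes of 0.13 (adjusted p = 0.00736) in KO clone 1 and 0.19 (adjusted p = 0.000135) in KO clone 2.

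The tested genes around RBPMS2 changed by less than the size rule. The annotation holds 41 other genes within 500 kb of RBPMS2, and 27 of them passed the filter. None of the 27 was called in either clone, while 7.58% of all genes were called in KO clone 1 and 5.96% in KO clone 2. With so few genes, none called is near those shares, and nothing is read from it. On the adjusted p without the size rule, 5 were higher and 3 lower in KO clone 1, against 17.4% and 18.8% of all genes, and 4 were higher and 1 lower in KO clone 2, against 14.4% and 16.1%. Over the 27 genes the log2 fold change ran from -0.34 to 0.93 in KO clone 1 and from -0.82 to 0.50 in KO clone 2. OAZ2, an inhibitor of ornithine decarboxylase and among the closest genes, had 34.8 ± 0.504, 35.4 ± 0.0931 and 35.1 ± 1.13 CPM in KO clone 1, KO clone 2 and WT. UBAP1L had 38.0 ± 0.966, 34.8 ± 2.61 and 24.6 ± 2.06 CPM, with log2 fold changes of 0.62 (adjusted p = 1.44e-11) and 0.50 (adjusted p = 3.74e-09) in KO clone 1 and KO clone 2. PDCD7, a component of the minor spliceosome, had log2 fold changes of 0.29 and 0.30 in KO clone 1 and KO clone 2 (adjusted p = 2.43e-06 and 1.10e-06). PIF1, a DNA helicase, had 0.33 (adjusted p = 4.92e-05) in KO clone 1 and 0.03 (adjusted p = 0.757) in KO clone 2. The 3 lower genes in KO clone 1 were MTFMT at -0.34 (adjusted p = 0.000238), ZNF609 at -0.20 (adjusted p = 2.31e-05) and SPG21 at -0.13 (adjusted p = 0.0174; edgeR). The 1 lower gene in KO clone 2 was CSNK1G1 at -0.14 (adjusted p = 0.0267, edgeR).

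**Figure D3:**
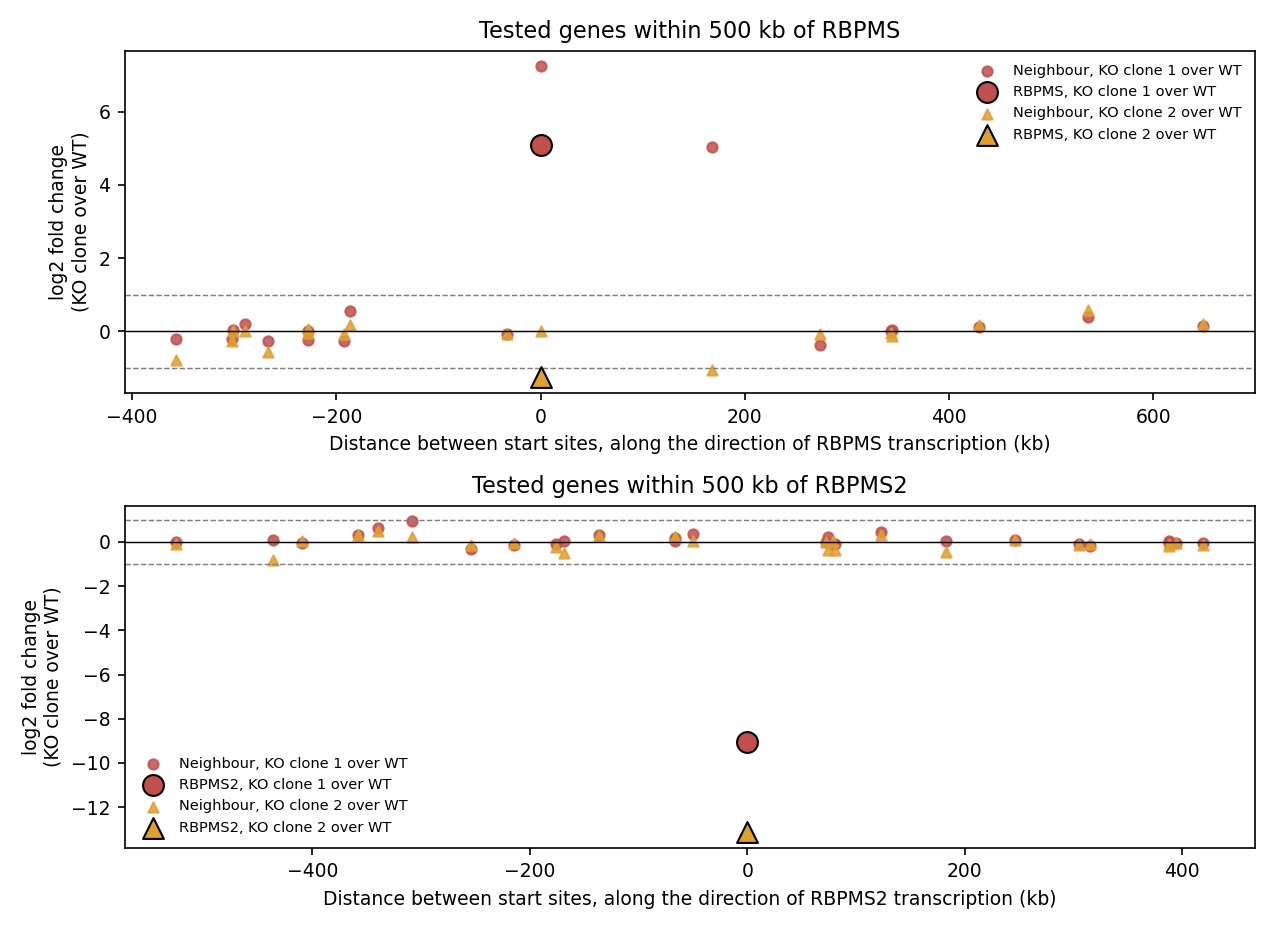
Log2 fold change of each KO clone over WT for tested genes within 500 kb of RBPMS and of RBPMS2, against the distance between start sites in kb along the direction of transcription. Circles are KO clone 1, triangles KO clone 2, large outlined symbols the member, and dashed lines the size rule of 1. Fitted values of RBPMS2 and of RBPMS-AS1, the circle at 7.24, depend on the fit's handling of groups at 0 counts; all neighbours of RBPMS2 lie between -0.82 and 0.93.

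MIR1272, a microRNA precursor gene inside an intron of RBPMS2, did not pass the filter, but its counts had the pattern of its host. It had 0 counts in all 6 knockout libraries and 10, 6 and 7 counts in the WT libraries. MIR1272 lies on the strand of RBPMS2, so its counts cannot be told apart from unspliced RBPMS2 RNA. Counts were also found on the strand of RBPMS2 beyond its annotated end. The locus of ENSG00000259635, an unnamed gene 20288 bases from RBPMS2 on the other strand, had 10, 10 and 24 such counts in KO clone 1, 22, 17 and 29 in KO clone 2, and 79, 79 and 62 in WT. These came to 0.471 ± 0.232 CPM in KO clone 1, 0.555 ± 0.114 CPM in KO clone 2 and 1.97 ± 0.0827 CPM in WT. This locus was chosen after its values were seen, and it overlaps OAZ2, which lies on the strand of RBPMS2. Whether its reads continue from RBPMS2 transcription was not tested.

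Proteins reported to act with the pair, or RNAs reported to be bound by it, included 1 gene that was higher and 1 that was lower in both clones together. The list holds SMAD2, SMAD3 and SMAD4 (signal carriers of the TGF-beta pathway), FOS and JUN (transcription factors of AP-1), EEF2 (translation elongation factor 2) and NOG. All 7 passed the filter, and 2 passed the call rule in the mean of both clones over WT, 1 higher and 1 lower, against 6.53% of all genes. The median log2 fold change of the 7 was -0.03, beside 0.00 over all genes tested. NOG had 20.8, 23.2 and 19.0 CPM in KO clone 1, 17.0, 19.3 and 19.8 CPM in KO clone 2, and 9.94, 9.07 and 8.84 CPM in WT. The log2 fold change of NOG in the mean of both clones was 1.09 (SE 0.072, adjusted p = 1.74e-16, edgeR). In that mean 2% of all genes were called higher. JUN had 2.89, 3.48 and 3.59 CPM in KO clone 1, 2.45, 3.58 and 4.30 CPM in KO clone 2, and 7.96, 5.68 and 6.84 CPM in WT. JUN was lower, with a log2 fold change of -1.01 (SE 0.133, adjusted p = 5.98e-07). The size of the JUN change lay at the threshold, and without KO clone 1 replicate 1, KO clone 2 replicate 1 or WT replicate 1 it was -0.97, -0.91 or -0.88 and so was not called. SMAD2, SMAD3, SMAD4 and FOS did not pass the adjusted p, with log2 fold changes of -0.03, 0.04, 0.07 and -0.12. EEF2 passed it at -0.08 (adjusted p = 0.0213).

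Genes whose splicing RBPMS is reported to control in rat smooth muscle were not called in total RNA. Of the 6 genes listed, 4 passed the filter (TPM1, ACTN1, MPRIP and SMTN). None of the 4 was called in the mean of both clones, while 6.53% of all genes were. With so few genes, nothing is read from that number. On the adjusted p without the size rule 3 were lower in that mean, against 18.9% of all genes. The median log2 fold change was -0.10. TPM1, which encodes alpha-tropomyosin, had 11.6 ± 0.579 CPM in KO clone 1, 10.6 ± 1.34 CPM in KO clone 2 and 14.9 ± 0.375 CPM in WT, with a log2 fold change of -0.43 in the mean of both clones (SE 0.072, adjusted p = 3.83e-06, edgeR). For ACTN1 and SMTN the clones differed in direction. ACTN1, an actin cross-linker, had 132 ± 3.70, 182 ± 4.94 and 169 ± 3.33 CPM in KO clone 1, KO clone 2 and WT, and KO clone 2 over KO clone 1 had a log2 fold change of 0.47 (adjusted p = 1.56e-15). SMTN, which encodes smoothelin, had 16.2 ± 1.07, 9.30 ± 0.395 and 11.9 ± 0.989 CPM, and that difference was -0.80 (adjusted p = 3.66e-10). Counts per gene do not show which exons were used, so the splicing of these RNAs was not analysed here.

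Other tissue-specific splicing regulators that were tested changed by less than the size rule in the mean of both clones. Of 26 listed genes 14 passed the filter. None was called in that mean, while 6.53% of all genes were. With so few genes, none called is near that share, and nothing is read from it. On the adjusted p without the size rule 5 were higher and 1 lower in the mean of both clones, against 16.4% and 18.9% of all genes. The median log2 fold change was 0.06. QKI, an RNA-binding protein of the STAR family, had 259 ± 9.05 CPM in KO clone 1, 269 ± 3.73 CPM in KO clone 2 and 168 ± 2.22 CPM in WT, with a log2 fold change of 0.65 (SE 0.028, adjusted p = 1.60e-22, edgeR). PTBP3, a polypyrimidine tract-binding protein, had 0.52 (adjusted p = 4.08e-20) and RBM38, another small protein with a single RNA recognition motif, 0.46 (adjusted p = 2.93e-09). ESRP1, an epithelial splicing regulator, was at 1.57, 1.99 and 2.85 CPM in KO clone 1, KO clone 2 and WT and had a log2 fold change of -0.70 (adjusted p = 0.000101). The most abundant, CELF2, at 961 ± 8.04 CPM in WT, had 0.13 (adjusted p = 0.00149).

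Markers of smooth muscle, a tissue in which the pair is known to act, were low in all groups. Of the 10 markers 5 passed the filter. Their summed level was 30.1 to 31.1 CPM in KO clone 1, 18.3 to 20.4 CPM in KO clone 2 and 19.5 to 22.4 CPM in WT, and TAGLN and SMTN made up most of it. The markers MYH11, CNN1, LMOD1, DES, MYOCD and CALD1 were each under 0.4 CPM in every group mean. ACTA2, the smooth muscle actin gene, was at 1.54 ± 0.194, 0.838 ± 0.282 and 1.51 ± 0.186 CPM in KO clone 1, KO clone 2 and WT. Its log2 fold change over WT was 0.03 (adjusted p = 0.943) in KO clone 1 and -0.84 (adjusted p = 0.00473) in KO clone 2 (edgeR). In the mean of both clones it was -0.40 (adjusted p = 0.110, edgeR). TAGLN, an actin-binding protein gene, was at 12.5 ± 0.555, 8.64 ± 0.950 and 6.60 ± 0.485 CPM in KO clone 1, KO clone 2 and WT (log2 fold change of the mean 0.66, adjusted p = 2.17e-08, edgeR). The single called marker was SYNPO2, beside 4.53% of all genes called lower. SYNPO2 had a log2 fold change of -1.31 (adjusted p = 0.00680) at levels of only 0.152, 0.203 and 0.447 CPM, and without WT replicate 3 it was not called (adjusted p = 0.0592).

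Megakaryocyte markers were listed as those of another blood lineage. Of 8 markers 3 passed the filter and 1 was called higher in the mean of both clones, while 2% of all genes were called higher. ITGA2B, the integrin chain CD41, was the most abundant, at 647 ± 13.0 CPM in KO clone 1, 697 ± 11.3 CPM in KO clone 2 and 435 ± 16.1 CPM in WT. Its log2 fold change of 0.63 (SE 0.033, adjusted p = 1.58e-19, edgeR) was too small to be called. The called marker, GP6, a platelet collagen receptor, was at 0.580, 1.00 and 0.364 CPM in KO clone 1, KO clone 2 and WT, with a log2 fold change of 1.10 (SE 0.315, adjusted p = 0.00486). Without WT replicate 2 the log2 fold change of GP6 was 0.70 (adjusted p = 0.0964) and it was not called. The platelet genes PF4, PPBP, GP9 and GP1BA were near 0 in all groups, at no more than 0.0582 CPM in any group mean. TUBB1 was at no more than 0.0975 CPM. The remaining tested marker, VWF, was at 5.54 ± 0.259, 7.14 ± 0.491 and 6.42 ± 0.225 CPM in KO clone 1, KO clone 2 and WT. Its log2 fold change in the mean of both clones was -0.03 (adjusted p = 0.837, edgeR). The summed level of the 8 markers was 646 to 668 CPM in KO clone 1, 697 to 718 CPM in KO clone 2 and 425 to 457 CPM in WT. ITGA2B made up nearly all of that sum, which therefore does not describe the other markers. The part of these markers in the values of RBPMS and RBPMS2 was not tested.

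**Figure D4:**
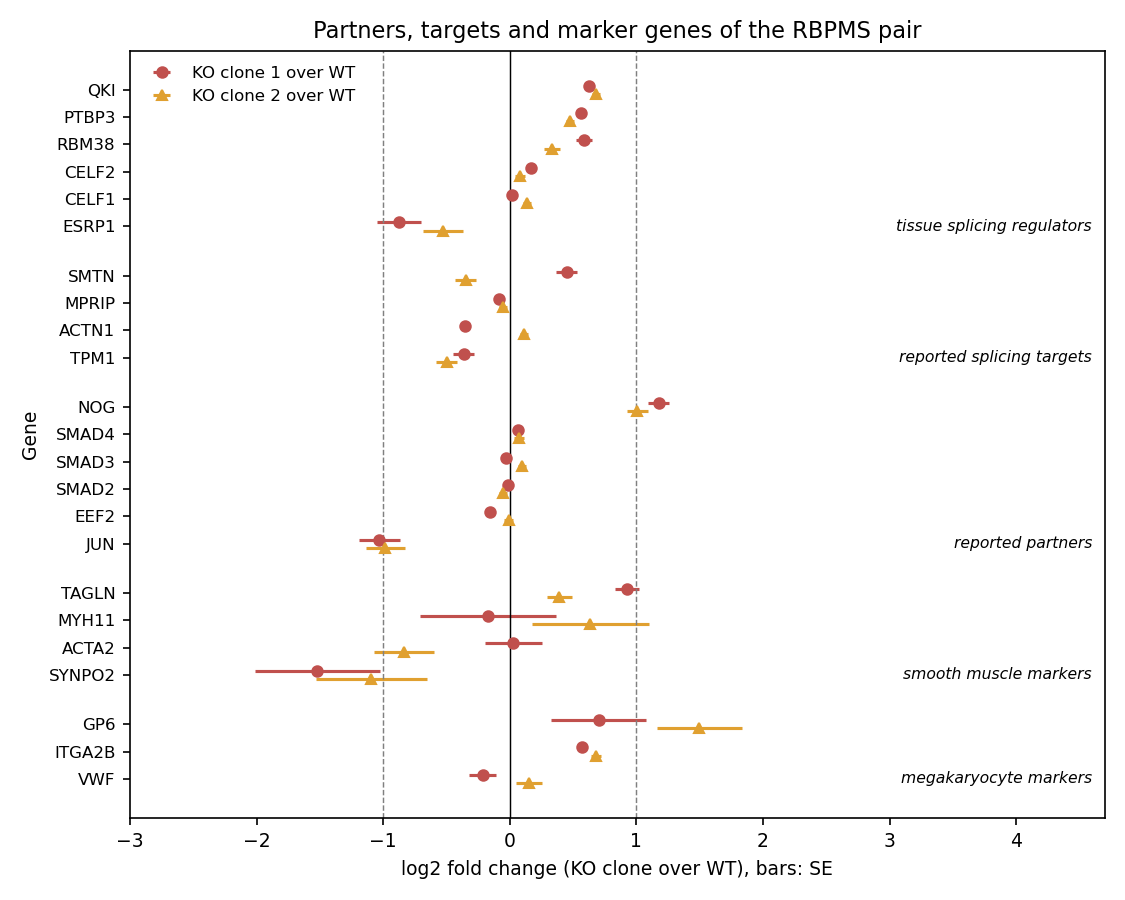
Log2 fold change over WT, with SE bars, of up to 6 members of each list, for KO clone 1 (circles) and KO clone 2 (triangles); dashed lines mark the size rule of 1 and list names stand at the right. NOG lies near 1 and JUN near -1 in both clones, and SMTN and ACTN1 lie on opposite sides of 0 in the clones.

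Genes were picked for likeness to RBPMS2 across the 9 libraries, so their lower level in both clones was fixed by the choice. Likeness was the Pearson correlation of log2(CPM + 0.5) over 9 libraries, among 10880 genes with at least 5 CPM in the highest group. The libraries form 3 groups, so a high value mostly reflects the order and spacing of 3 group means. MCC, a candidate tumour suppressor of the colon, had r of 0.999 and was at 0.0724, 0.0676 and 14.9 CPM in KO clone 1, KO clone 2 and WT. The next were SLC16A10 (an aromatic amino acid transporter; 0, 0 and 5.22 CPM), ATP10A (a phospholipid flippase; 0, 0.00889 and 32.6 CPM) and NFE2L3 (a transcription factor; 0.0103, 0.00808 and 9.11 CPM). The histone genes H2BC18 (3.55, 3.57 and 217 CPM) and H3C13 (0, 0.0259 and 35.2 CPM) completed the 6, and as members of a family of near-identical genes their counts are uncertain. ATP10A lies on chromosome 15 with RBPMS2 but is not within 500 kb of it; the others lie elsewhere.

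The genes picked for likeness to RBPMS had its order of group means, which the choice favours, with smaller differences from WT in KO clone 1. CLIC4, an intracellular chloride channel protein gene, had r of 0.996 and was at 73.8 ± 2.00 CPM in KO clone 1, 25.8 ± 0.585 CPM in KO clone 2 and 29.4 ± 2.09 CPM in WT. ARAP1, DIPK1B, ME3, SLC7A11 (the cystine transporter subunit xCT) and GREB1 (an oestrogen-induced gene) followed, with r of 0.993 to 0.988. GREB1 had the most similar size of change, at 10.6 ± 0.968, 0.514 ± 0.0865 and 1.39 ± 0.341 CPM in KO clone 1, KO clone 2 and WT. SLC7A11 moved by 0.27 in KO clone 1 and -0.04 in KO clone 2 on the log2 scale, so that its likeness lies in the pattern and not in the size. None of these genes is on the chromosome of RBPMS.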

How the data were processed

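RNA of 9 KG-1a libraries in 3 groups of 3 was analysed from the deposited files. The authors' files hold raw counts of read pairs per gene from STAR on GRCh38, per the submitters' processing notes, in 3 countings (without strand and 1 for each strand); the versions of STAR and of its annotation are not given in the sources used here. Rows that name no gene held 70.4% to 74.1% of pairs and were left out. The deposited comparison table, made with DESeq2 per the submitters' notes, also holds the authors' raw counts, counts divided by size factors (a signal), log2 fold changes, linear fold changes (a ratio with a sign), Wald statistics (a score) and p-values. The series text names apeglm shrinkage, but the fold divided by its SE equalled the deposited statistic in 45107 of 45107 genes (tolerance 1e-06).

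Counts on the strand that held most stranded counts (used because neither strand held 35% to 65%) were fitted with edgeR 4.0.16 in R 4.3.3 (filterByExpr by group, TMM scaling, quasi-likelihood with robust estimation, 1 coefficient per group, 20655 genes), and p-values were adjusted by Benjamini-Hochberg over all of them. Each SE was taken from the size of the fold change and the F statistic. The scripts were tested on simulated data. CPM are counts per scaled library total; TPM use exon lengths. Positions and exon lengths came from GENCODE 44, in which 60463 of 60605 identifiers were found; 40591 had a symbol. Of the listed genes, 2 are not reported here. The members and gene lists were chosen with earlier results of these data known. Named genes were the members, PRMT2, called neighbours, up to 6 genes per list by smallest adjusted p and the 6 most correlated genes per member; other genes given with values were chosen after those were seen. Alternatives were RLE size factors, no filter, DESeq2 1.42.0, counting without strand, a replicate block, fits of only 2 groups and leaving out each library.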

Additional observations from a re-analysis of the deposited data

Results flagged for a closer look

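RBPMS was above every WT library in all 3 KO clone 1 libraries and below every WT library in all 3 KO clone 2 libraries, and its log2 difference of KO clone 2 over KO clone 1 was -6.35; this difference was not tested, because the gene was chosen with its values known.

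RBPMS-AS1 differed between the clones, with a fitted log2 fold change of KO clone 2 over KO clone 1 of -7.24 (edgeR, adjusted p = 5.5e-07). All 3 KO clone 1 libraries had counts and all KO clone 2 and WT libraries had 0. The size thus depends on the fit, and the bound of at least 21.1-fold is the safer value. RBPMS-AS1 passed the filter only through KO clone 1, so its p-value is no independent support.

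Of the genes picked for their likeness to RBPMS, 3 also differed between the clones by more than the size rule in the same test. The log2 fold change of KO clone 2 over KO clone 1 was -1.52 for CLIC4 (adjusted p = 4.96e-26), -2.06 for DIPK1B (adjusted p = 1.35e-21) and -4.36 for GREB1 (adjusted p = 4.02e-23). Their choice by likeness favours such a difference, so these p-values are no independent support.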

How the results depend on the processing

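Without regard to strand the log2 fold change of RBPMS was 2.06 in KO clone 1, -0.23 in KO clone 2, 0.92 in their mean and -2.29 in KO clone 2 over KO clone 1. That counting also gave 0 called neighbours of RBPMS in the mean of both clones, against 1, 1 called gene among reported partners (JUN at -0.99 lost), against 2, and 0 among megakaryocyte markers (GP6 at 0.06 lost), against 1. Around RBPMS2, 1 gene was called in KO clone 1, KO clone 2 and their mean, against 0: MIR1272 with no filter and with DESeq2, and ENSG00000259635 without regard to strand (at -1.17, -1.35 and -1.26). Of the splicing regulators, 1 (KHDRBS3, at -1.88 and -1.91) was called with no filter and with DESeq2, against 0.

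Leaving out each library in turn gave RBPMS log2 fold changes of 5.00 to 5.20 in KO clone 1 and -1.38 to -1.15 in KO clone 2. RBPMS2 was 369-fold to 619-fold below WT in KO clone 1, where without replicate 2 the value is a bound from 0 counts, and at least 813-fold to 1292-fold below WT in KO clone 2. Called partners ranged from 1 to 2, and smooth muscle and megakaryocyte markers from 0 to 1 each. Over 114 named genes and contrasts, 1672 of 1681 comparisons kept their direction and call, 9 lost the call and 0 reversed.

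Replicate numbers did not pair the samples: the 9 same-number correlations were -0.0137 to 0.0122. A replicate block moved the genes called in KO clone 1 to 1557, against 1565, and left RBPMS at 5.08. Depth limits the lowest values: 3 counts are 0.0701 to 0.110 CPM.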
